A study of Mus musculus with 8 samples.

Results

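Genes of MHC class I antigen presentation and of the proteasome were compared between magnetically retained and non-retained cells of mouse fibrosarcomas. The 43 members, of 35975 genes summed from the deposited tables, were taken from a list by function: 8 class I heavy chains, the light chain B2m, 8 genes of peptide transport and loading, the transactivator Nlrc5, 3 immunoproteasome subunits, 3 proteasome activators and 19 subunits of the constitutive proteasome. That list was chosen with earlier results of these data known. All 43 passed the filter on low counts, so each one entered the test. The tumors were syngeneic fibrosarcomas implanted under the skin of wild-type C57BL/6 mice, and no other genotype or treatment is named. After digestion with collagenase and DNase I and lysis of red cells, the suspension was put over magnetic columns. What the column retained is the iron positive fraction (4 libraries) and what ran through is the iron negative fraction (4 libraries), and both come from the same kind of tumor. Each of the tags 3L, 3R, 4R and 5L occurs once per fraction. The labels do not say whether tags are separate animals, and they give no age, no tumor line and no antibody sort. The p-values below therefore cover only how far these 8 samples vary, which may be technical. Wherever 4 values of a fraction are given, they follow the tags 3L, 3R, 4R and 5L in that order.

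MHC class I molecules show peptides from inside the cell to CD8+ T cells and to receptors of natural killer cells. The proteasome cuts cytosolic proteins into peptides, the TAP transporter moves them into the endoplasmic reticulum, and chaperones load them onto a heavy chain bound to beta-2 microglobulin. Interferon gamma raises most genes of this route and replaces the catalytic subunits of the constitutive proteasome (Psmb5, Psmb6 and Psmb7) with those of the immunoproteasome (Psmb8, Psmb9 and Psmb10), which macrophages and other immune cells carry at a high level.

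Libraries held 19.04 to 24.31 M estimated counts. The macrophage named in the series title was checked with 15 markers, which summed to 31244 to 33947 CPM (counts relative to the library size after TMM normalization) in the iron negative and 23406 to 30960 CPM in the iron positive libraries, with 6 of the 15 lower and none higher by the test used below. Markers of other cells moved too. The 13 endothelial markers summed to 70.1 to 119 CPM in iron negative and 235 to 1772 CPM in iron positive libraries (13 higher), and 12 markers of fibroblasts and fibrosarcoma to 135 to 410 and 510 to 4820 CPM (6 of 11 tested higher). The 8 T cell markers summed to 32.5 to 46.7 and 20.6 to 27.0 CPM (1 of 6 tested lower), and 7 B and plasma cell markers to 56.1 to 73.1 and 26.0 to 42.7 CPM (1 of 3 tested lower). Of the other marker lists, 7 of 10 tested pericyte and 6 of 7 skeletal muscle genes were higher, as were 3 of 6 neutrophil genes, and 1 dendritic cell gene was higher and 1 lower of 7. None of 3 tested natural killer and 5 tested red cell genes passed. The 7 natural killer markers summed to 5.04 to 9.27 CPM in iron negative and 2.05 to 4.18 CPM in iron positive libraries, without overlap. The 6 red cell markers summed to 11.8 to 60.7 and 42.0 to 212 CPM. No marker of these lists was at 0 in all libraries. The part of such cells in the results below was not tested, and in bulk RNA fewer cells of a type cannot be told apart from less RNA per cell.

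Of the 43 members 8 fell in the iron positive fraction, by small amounts, and none rose: H2-M3, B2m, Tap1, Tapbp, Psmb8, Psmb9, Psmb10 and Psme1. Calls were made with edgeR (quasi-likelihood) at a threshold of 0.05 for p-values adjusted by Benjamini and Hochberg over all 13343 genes tested. Of those genes 5.21% were called lower and 8.49% higher, 13.7% in all. The shares of all genes here and below only give the scale, since the members were chosen with earlier results known. All 8 belong to the 24 members that serve class I molecules, peptide loading, the immunoproteasome and its activators. Of these 24, 23 had a negative log2 fold change (iron positive minus iron negative), with a median of -0.20, while 16 of the 19 constitutive subunits had a positive one, with a median of 0.07. The median of all genes tested was -0.01. With the tag as a block 10 members were lower and 2 higher, against 9.39% and 12.8% of all genes, 22.2% in all. In 13 of the 43 members every iron positive library lay below every iron negative one, against 10.3% of all genes tested, and in none did every one lie above, against 11.2%. At an unadjusted p under 0.05, 15 members were lower and 3 higher, against 14% and 17.1% of all genes. DESeq2 called 12 lower (the 8 genes with H2-K1, H2-T23, Psme2 and Tap2) and none higher, against 6.27% and 11.7%. Limma voom called 3 lower (Psmb9, Psme1 and Tapbp) and none higher, against 2.05% and 1.42%.

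**Figure D1:**
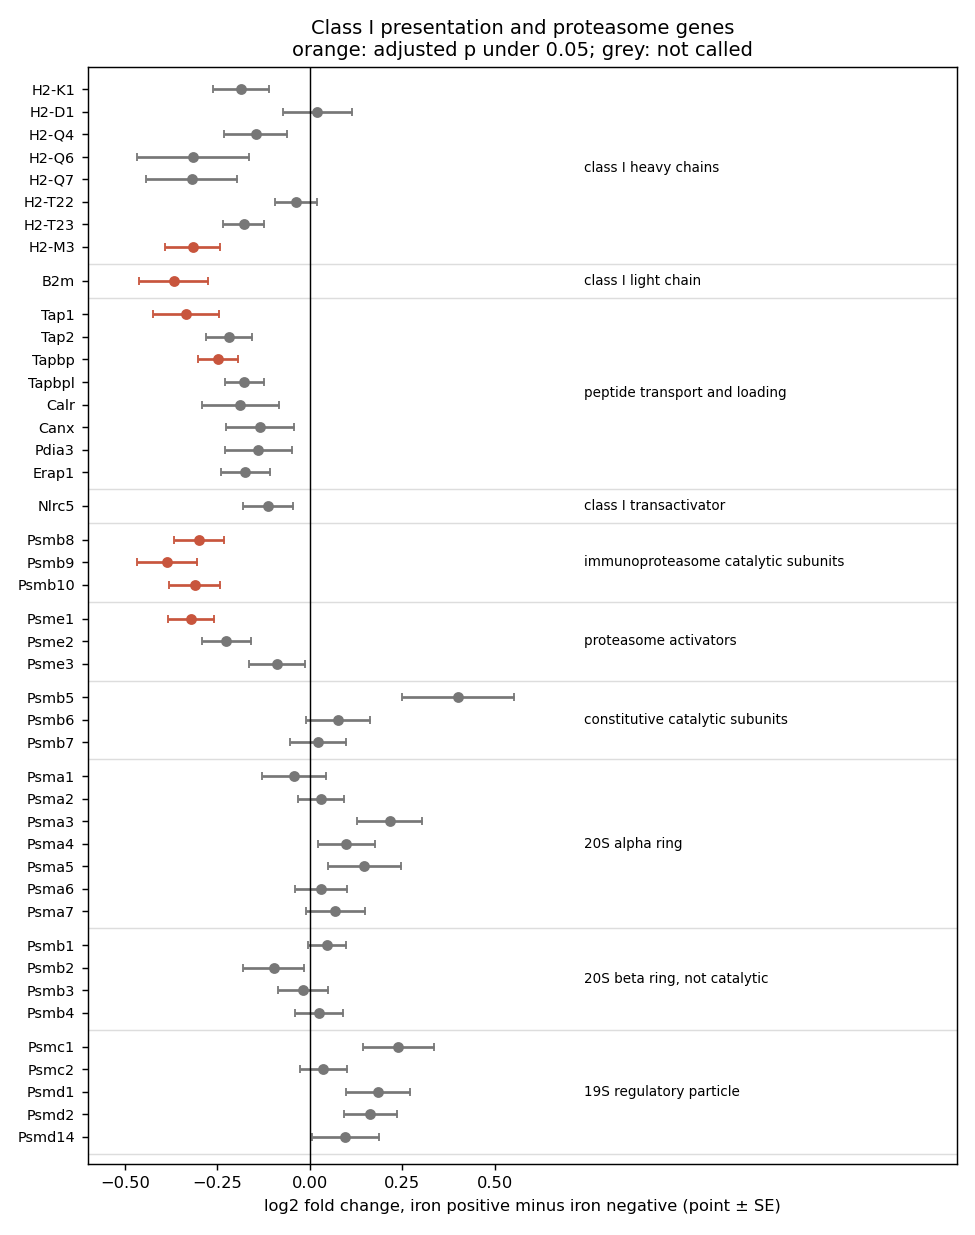
Log2 fold change of each of the 43 members, iron positive minus iron negative, as a point with its SE (4 libraries per fraction), by functional group. The 8 called genes, in orange, lie between -0.39 and -0.25, and the constitutive subunits lie between -0.10 and 0.40 with none called.

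The calls depended on what the libraries were scaled to. When libraries were scaled to the 15 macrophage markers in place of TMM, the median of all genes tested moved to 0.29. No member was then lower (edgeR, none at an unadjusted p under 0.05 either), while 19 were higher, H2-D1 and 18 constitutive subunits. Of the 8 genes 7 stayed negative, as B2m at -0.07 (adjusted p = 0.475), and Tapbp turned to 0.05 (adjusted p = 0.690). Over all genes, that scaling called 28% higher and 0.337% lower, 28.3% in all. Relative to the median of all genes under that scaling, the 8 genes were at -0.24 (Tapbp) to -0.37 (Psmb9). TMM gave -0.25 and -0.39, without taking off its own median of -0.01. A change of scaling moves all genes by nearly the same amount. The distance from the median was thus bound to stay nearly the same, and it does not test the calls.

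**Figure D2:**
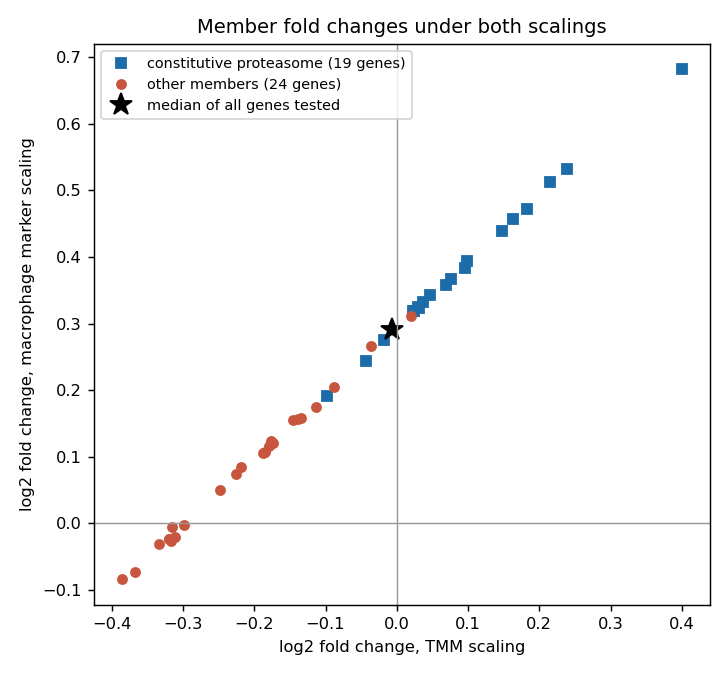
Log2 fold change of each member with TMM scaling (x axis) and with scaling to 15 macrophage markers (y axis). Squares are the 19 constitutive subunits, circles the other 24 members and the star the median of all genes tested, which lies at -0.01 and 0.29.

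Leaving out 1 library could also change the calls in edgeR, of members and of all genes alike. When an iron negative library was left out, no member was called. No gene of any kind passed after leaving out 3L, 3R or 4R, and 26 were higher and 12 lower after leaving out 5L. In tag order of the library left out, and at an unadjusted p under 0.05, these fits held 13, 12, 14 and 13 members lower (10.9%, 10.6%, 11.8% and 10.8% of all genes) and 2, 0, 1 and 0 higher (15.1%, 15.7%, 15.5% and 15.0%). With those libraries left out, DESeq2 called 8, 8, 12 and 10 members lower, the 8 genes among them each time, and 695, 706, 706 and 726 genes lower in all. Without iron positive 4R only Psmb9 was called, and without 3L 5 of the 8 genes (not B2m, Tap1 and Psmb8). Without 3R 6 of them were called (not B2m and H2-M3), and besides these Tap2 was lower and Psmb5 higher. Without 5L all 8 were called. In that order, 214, 490, 568 and 979 of all genes were lower, and 399, 1402, 1141 and 1487 higher. All 8 kept a negative fold change in each of these fits.

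Promoter windows of 250 bases before the RefSeq start (GRCm38.p6, the assembly of mm10) were found for 37 of the 43 members and searched on both strands. The interferon-stimulated response element (GAAA, then NN, then GAAA) matched in B2m, H2-T22, H2-T23 and Psmb3, 4 members, against 2.98% of all 32851 windows. A gamma-activated site, TTCNNNGAA, matched in H2-M3 and Psmb8, against 7.02% of all windows. The antioxidant response element TGACNNNGC, to which the NRF1 and NRF2 factors bind, matched in Calr, H2-K1, H2-T22, Pdia3, Psmb5 and Psmb6, against 10.2%. That is 2 of 16 constitutive subunits with a window and 0 of the 8 genes called lower. So few windows cannot tell these groups from the share of all windows. The kappa B motif matched in 11 members, 6 of them heavy chains (H2-K1, H2-D1, H2-Q4, H2-Q6, H2-Q7 and H2-T22) besides H2-M3 and B2m, against 7.25%, and the GC box GGGCGG in 15, against 32.7%. The windows of 2 genes that fell and of 2 constitutive catalytic subunits are shown, with the matches in capitals. These 4 windows do not stand for their groups. The interferon-stimulated element matched in 1 of 8 genes called lower and in 1 of 16 constitutive subunits. The gamma-activated site matched in 2 of the 8 and in 0 of the 16.
B2m, chr2:122147437-122147686, plus strand (interferon-stimulated element, then kappa B): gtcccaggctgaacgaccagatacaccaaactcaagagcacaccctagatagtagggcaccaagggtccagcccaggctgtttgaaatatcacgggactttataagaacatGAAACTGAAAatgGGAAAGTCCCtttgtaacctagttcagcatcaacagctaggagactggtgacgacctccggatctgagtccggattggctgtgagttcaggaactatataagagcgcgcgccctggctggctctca
H2-M3, chr17:37269984-37270233, plus strand (gamma-activated site, then kappa B): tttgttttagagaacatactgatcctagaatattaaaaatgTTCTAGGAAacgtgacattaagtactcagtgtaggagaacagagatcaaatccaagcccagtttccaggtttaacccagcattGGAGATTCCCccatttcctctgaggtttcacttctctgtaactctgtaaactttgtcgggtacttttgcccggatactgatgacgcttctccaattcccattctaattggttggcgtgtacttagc
Psmb5, chr14:54617996-54618245, minus strand (antioxidant response element): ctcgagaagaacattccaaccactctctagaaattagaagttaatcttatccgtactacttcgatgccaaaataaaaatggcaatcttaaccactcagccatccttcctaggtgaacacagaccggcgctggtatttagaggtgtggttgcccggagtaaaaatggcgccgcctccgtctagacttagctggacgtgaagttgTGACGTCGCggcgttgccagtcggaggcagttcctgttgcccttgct
Psmb6, chr11:70525107-70525356, plus strand (GC box, then antioxidant response element): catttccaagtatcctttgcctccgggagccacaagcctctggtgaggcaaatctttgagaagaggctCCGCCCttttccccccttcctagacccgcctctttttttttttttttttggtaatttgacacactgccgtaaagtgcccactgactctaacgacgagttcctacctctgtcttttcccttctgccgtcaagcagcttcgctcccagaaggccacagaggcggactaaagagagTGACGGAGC
These matches describe letters in a window and no binding was measured.

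B2m, the light chain that binds class I heavy chains, was the most abundant member and fell by 22.5%. The gene lies on chromosome 2 at 122147686 to 122153083 (mm10), and it ranked 16 of all genes by mean TPM (an abundance divided by transcript length, so that levels of different genes can be compared). Iron negative libraries stood at 3185, 2703, 2680 and 2856 CPM. Iron positive libraries stood at 2342, 2117, 2059 and 2337 CPM, all below the lowest iron negative one. The log2 fold change was -0.37 ± 0.09 (SE; 2856 ± 233 to 2214 ± 147 CPM, SD, n = 4 each; adjusted p = 0.0363). B2m shares no 31-base word with the transcripts of another gene, so its reads were not split with a copy.

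The classical heavy chains H2-K1 and H2-D1, which present peptides to CD8+ T cells, did not pass in the main fit. DESeq2 called H2-K1 lower (adjusted p = 0.0182; 0.00231 to 0.431 over 27 alternatives). The macrophage scaling called H2-D1 higher (0.31, adjusted p = 0.0273), as it did 28% of all genes. H2-K1 had iron negative values of 1970, 1945, 1910 and 2088 CPM and iron positive values of 1741, 1657, 1692 and 1871 CPM, a log2 fold change of -0.18 ± 0.08 (adjusted p = 0.137). Its fractions did not overlap. H2-D1 stood at 2371, 2189, 2112 and 2251 CPM in iron negative and 2497, 2003, 2368 and 2181 CPM in iron positive libraries, with a log2 fold change of 0.02 ± 0.09 (adjusted p = 0.905), and its fractions overlapped. On the per-length scale H2-K1 was 1.40 ± 0.10 (SD, n = 4) times H2-D1 in iron negative and 1.22 ± 0.16 times in iron positive libraries, lower in all 4 same-tag pairs with overlapping ranges. On protein-coding transcripts alone H2-K1 was 1.062 ± 0.035 times H2-D1 in iron negative and 0.922 ± 0.083 times in iron positive libraries. There the fractions did not overlap, and the iron positive mean of the ratio was 0.867 of the iron negative one. The level of the ratio thus depended on which transcripts were counted, while its fall in all 4 same-tag pairs did not. The reads of these genes are partly ambiguous, since H2-K1 shared 22.8% and H2-D1 26.9% of its 31-base words with other genes. For each of them the other was the gene that shared the most.

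Among the non-classical heavy chains only H2-M3, which presents formylated peptides of bacteria and mitochondria, fell. Its iron negative values were 71.6, 68.7, 68.4 and 62.9 CPM, and its iron positive values 61.4, 52.0, 49.9 and 54.9 CPM. The highest iron positive value, in 3L, stayed below the lowest iron negative one, in 5L. The log2 fold change was -0.32 ± 0.07 (67.9 ± 3.6 to 54.5 ± 5.0 CPM, adjusted p = 0.0290), and only 4.62% of its words were shared with other genes. H2-T23, which encodes Qa-1, the ligand of the NKG2A receptor, was at 233, 237, 216 and 216 CPM in iron negative and 206, 194, 199 and 199 CPM in iron positive libraries. Its fractions did not overlap, but the gene did not pass (-0.18 ± 0.06, adjusted p = 0.0660). DESeq2 called H2-T23 lower (adjusted p 0.0236 to 0.304 over 27 alternatives).

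The Qa-2 genes H2-Q6 and H2-Q7 had fold changes as large as that of H2-M3 with more spread (-0.32 ± 0.15 and -0.32 ± 0.12, adjusted p = 0.197 and 0.115). H2-Q7 stood at 192, 205, 149 and 223 CPM in iron positive libraries against 214 to 256 CPM in iron negative ones, and 4R was the lowest for H2-Q6 as well (73.0 CPM, the others 87.6 to 117 CPM). H2-Q4 (-0.15) and H2-T22 (-0.04) overlapped between fractions and did not pass. Reads of this family cannot be assigned firmly: H2-Q6 shared 51.8%, H2-T22 51.7%, H2-Q7 39.2% and H2-Q4 38.5% of its words with other genes. Summed over the 8 heavy chains the level was 4368 to 4817 TPM in iron negative and 4205 to 4605 TPM in iron positive libraries. B2m divided by that sum was 1.39, 1.23, 1.22 and 1.22 in iron negative and 1.08, 1.07, 1.02 and 1.09 in iron positive libraries. This ratio, which no library scaling can move, did not overlap between fractions.

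Of the loading genes, Tap1 and Tapbp fell. Tap1 encodes one chain of the peptide transporter and lies on chromosome 17 at 34187553 to 34197225 within the class II region, between Psmb9 and Psmb8, with Tap2 after Psmb8. Its values were 187, 182, 157 and 169 CPM in iron negative and 125, 151, 126 and 150 CPM in iron positive libraries, a log2 fold change of -0.33 ± 0.09 (adjusted p = 0.0421). The fractions did not overlap, and the largest drop was in tag 3L. Tapbp, the tapasin that bridges transporter and heavy chain, stood at 325, 321, 314 and 302 CPM in iron negative and 265, 273, 255 and 270 CPM in iron positive libraries. With little spread its log2 fold change of -0.25 ± 0.05 passed (316 ± 10 to 266 ± 8 CPM, adjusted p = 0.0234).

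Tap2, the partner chain of Tap1, missed the threshold (139 ± 7 to 120 ± 7 CPM, -0.22 ± 0.06, adjusted p = 0.0508), although its fractions did not overlap. With the tag as a block it was called lower (adjusted p = 0.0232; 0.00336 to 0.584 over 27 alternatives). Tapbpl, a tapasin-related peptide editor, did not overlap either (32.1 ± 0.4 to 28.4 ± 1.3 CPM, -0.18, adjusted p = 0.0619). The general folding factors of the endoplasmic reticulum had negative values that did not pass. Calr, the chaperone calreticulin, was at 1342, 1141, 1080 and 1155 CPM in iron negative and 1201, 990, 943 and 1007 CPM in iron positive libraries (-0.19 ± 0.10, adjusted p = 0.259). Pdia3, the oxidoreductase that pairs with tapasin, was at 858, 755, 693 and 709 and then at 752, 663, 646 and 678 CPM (-0.14 ± 0.09, adjusted p = 0.332). Both were highest in tag 3L in both fractions. Canx (-0.13), the membrane chaperone calnexin, and Erap1 (-0.17), the peptidase that trims peptides to fit the groove, were lower in all 4 same-tag pairs without passing.

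Nlrc5, the transactivator of class I genes, did not pass and was lower in 3 of 4 same-tag pairs. It was at 81.8, 94.5, 92.4 and 94.9 CPM in iron negative and 82.3, 78.3, 84.5 and 90.7 CPM in iron positive libraries, with overlapping fractions (-0.11 ± 0.07, adjusted p = 0.289).

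All 3 immunoproteasome subunits fell. Psmb9 (LMP2) stood at 102, 96.0, 94.3 and 99.7 CPM in iron negative and 74.2, 83.2, 63.8 and 78.9 CPM in iron positive libraries, the largest decrease of any member at -0.39 ± 0.08 (98.0 ± 3.5 to 75 ± 8.3 CPM, adjusted p = 0.0220). It is divergently transcribed from the same interval as Tap1, with 225 bases between the RefSeq starts, and the Psmb9 to Tap1 ratio on the per-length scale overlapped between fractions (1.42 ± 0.12 and 1.40 ± 0.06, SD, n = 4). Psmb8 (LMP7) was at 234, 223, 209 and 217 CPM in iron negative and 174, 182, 165 and 196 CPM in iron positive libraries (-0.30 ± 0.07, adjusted p = 0.0268). Psmb10 (MECL-1), on chromosome 8 at 105935735 to 105938444 and so outside the MHC, was at 112, 104, 101 and 111 CPM and then at 85.8, 80.8, 82.0 and 96.2 CPM, with -0.31 ± 0.07 (adjusted p = 0.0250). In none of the 3 genes did the fractions overlap.

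**Figure D3:**
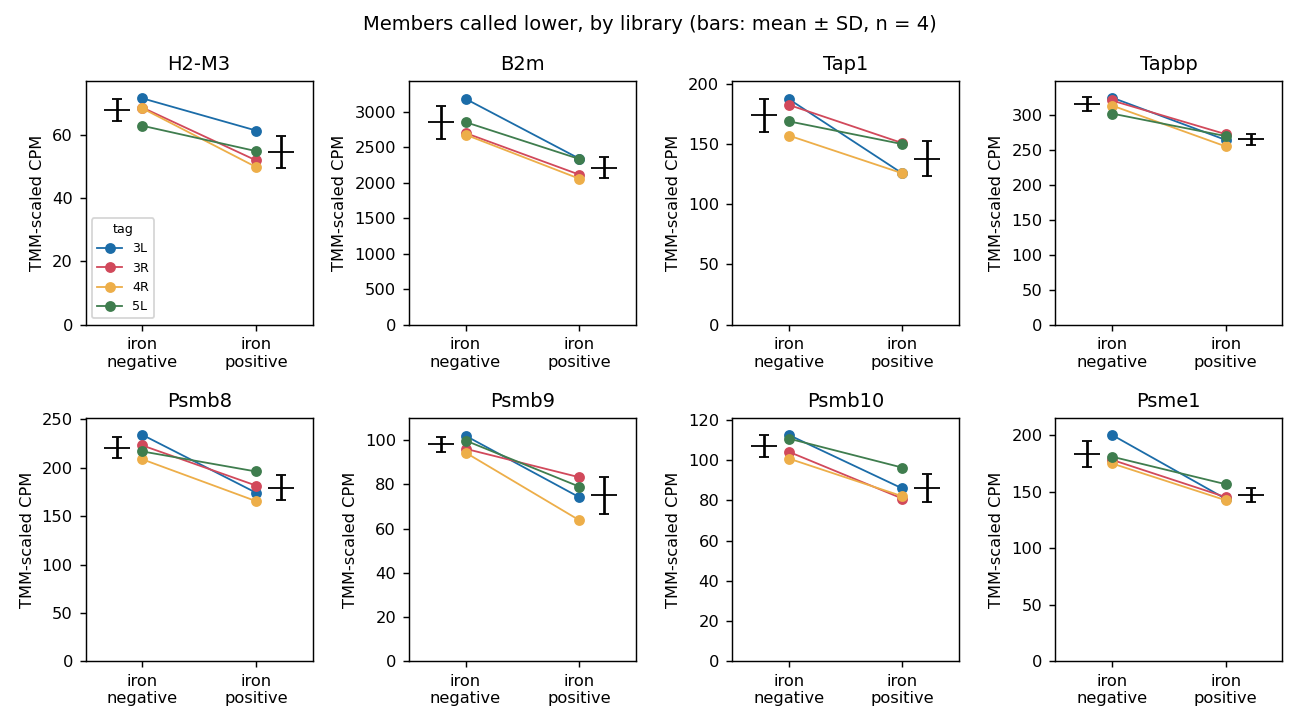
TMM-scaled CPM (y axis) of the 8 genes called lower, in the 4 iron negative and 4 iron positive libraries (x axis). Lines join libraries of one tag, bars are mean ± SD, and each line falls in every panel, as for B2m from 2856 ± 233 to 2214 ± 147 CPM.

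Of the proteasome activators, which open the 20S core, Psme1 fell. Psme1 and Psme2 form the interferon-inducible PA28 alpha-beta ring, and Psme3 forms the nuclear PA28 gamma ring. Psme1 was at 200, 178, 175 and 181 CPM in iron negative and 144, 145, 142 and 157 CPM in iron positive libraries, and had the smallest adjusted p of all members (-0.32 ± 0.06, adjusted p = 0.0185). Psme2 was at 149, 135, 132 and 141 CPM and then at 122, 125, 107 and 122 CPM (-0.23 ± 0.07, adjusted p = 0.0560). Its fractions did not overlap, and with the tag as a block it was called lower (adjusted p = 0.0283; 0.0234 to 0.561 over 27 alternatives). Psme2 shared 33.5% of its words with other genes, and Psme2b, which shared the most, averaged 6.02 and 5.61 CPM. Psme3 overlapped between fractions (95.1 ± 5.6 to 89.5 ± 8.2 CPM, adjusted p = 0.474).

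The constitutive catalytic subunits did not fall. Psmb5 carries the chymotrypsin-like activity that Psmb8 replaces. It stood at 86.1, 80.4, 83.1 and 76.3 CPM in iron negative and 139, 81.6, 117 and 93.0 CPM in iron positive libraries. Psmb5 was higher in all 4 same-tag pairs, by the most in 3L and 4R and hardly in 3R, and the fractions overlapped (0.40 ± 0.15, adjusted p = 0.111). Blocking on the tag, it was called higher (0.37, adjusted p = 0.0471; 0.00318 to 0.244 over 27 alternatives). Psmb5 shared 65.7% of its words with other genes. The gene that shared the most, Gm3375, was assigned 0.0334 CPM in iron negative and 0.0249 CPM in iron positive libraries. Psmb6, the caspase-like subunit that Psmb9 replaces, was at 118, 109, 109 and 107 CPM in iron negative and 135, 105, 120 and 107 CPM in iron positive libraries (0.08 ± 0.09, adjusted p = 0.588). Psmb7, the trypsin-like subunit that Psmb10 replaces, averaged 104 ± 7 and 106 ± 9 CPM (adjusted p = 0.870).

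Each immunoproteasome subunit was also set against its constitutive counterpart within each library, which removes library scaling. The Psmb8 to Psmb5 ratio of TPM values was 2.36, 2.43, 2.15 and 2.48 in iron negative and 1.08, 1.87, 1.23 and 1.84 in iron positive libraries. Psmb9 to Psmb6 was 0.447, 0.449, 0.456 and 0.478 and then 0.289, 0.423, 0.290 and 0.374. Neither ratio overlapped between fractions, and in both the iron positive 3L and 4R libraries were the lowest. Psmb10 to Psmb7 overlapped: it was 1.38, 1.42, 1.30 and 1.31 in iron negative libraries, and 0.982, 1.10, 1.0 and 1.41 in iron positive ones, where tag 5L was higher than its iron negative partner. On protein-coding transcripts alone this ratio did not overlap (0.711 ± 0.043 to 0.552 ± 0.071). For the sums of the 3 subunits the ratio went from 1.22 ± 0.04 to 0.90 ± 0.18 (SD, n = 4) without overlap. Psme1 to Psme3 went from 5.05 ± 0.05 to 4.29 ± 0.34 without overlap. Against non-catalytic subunits, Psmb9 to Psmb4 went from 0.612 ± 0.035 to 0.470 ± 0.055 without overlap, whereas Psmb8 to Psma1 (2.35 ± 0.15 to 1.96 ± 0.25) and Psmb10 to Psmb2 (1.03 ± 0.08 to 0.916 ± 0.053, lower in 3 of 4 pairs) overlapped. The Psmb8 to Psmb5 ratio also carries the higher mean of Psmb5, which was not called. No test was made of these ratios.

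**Figure D4:**
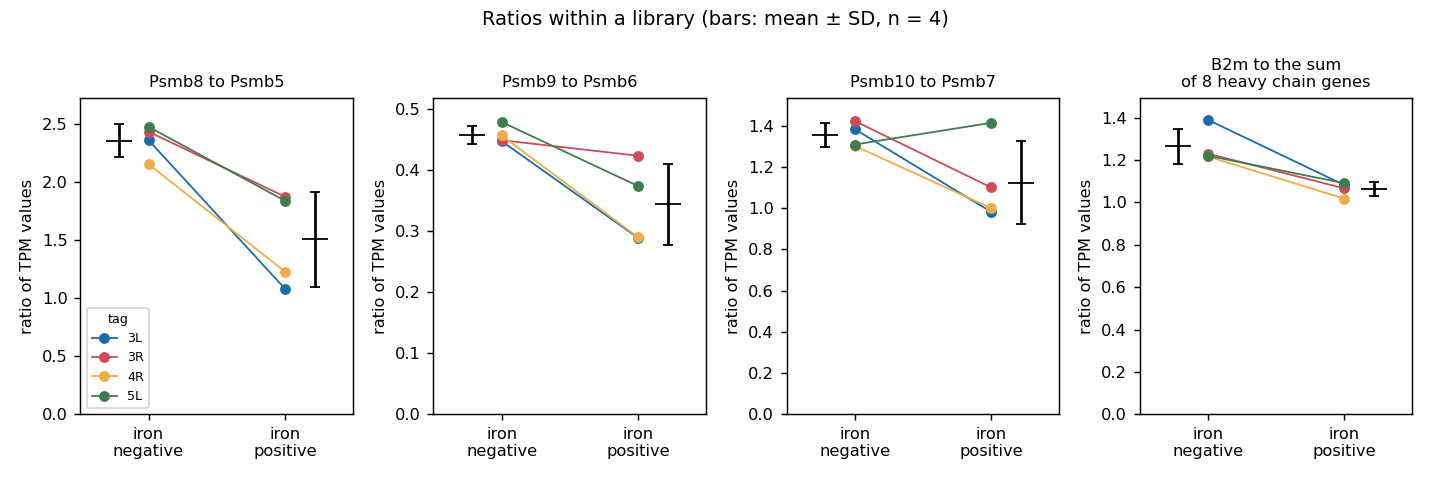
Ratios of TPM values (y axis) within each of the 4 iron negative and 4 iron positive libraries (x axis), with lines joining tags and bars for mean ± SD. Psmb8 to Psmb5 falls from 2.36 ± 0.14 to 1.51 ± 0.41, while Psmb10 to Psmb7 rises in tag 5L.

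None of the remaining 16 constitutive subunits was called, and their log2 fold changes ran from -0.10 (Psmb2) to 0.24 (Psmc1). The alpha ring, which gates the core, had a median log2 fold change of 0.07 (range -0.04 to 0.22, none of 7 called), the non-catalytic beta subunits one of 0.003 (-0.10 to 0.05, none of 4) and the 19S particle, which recognises and unfolds ubiquitinated proteins, one of 0.16 (0.04 to 0.24, none of 5). Psma3 was at 96.5, 82.3, 76.8 and 88.4 CPM in iron negative and 113, 96.5, 96.0 and 93.6 CPM in iron positive libraries, higher in all 4 same-tag pairs (0.22 ± 0.09, adjusted p = 0.136). It was called higher with the tag as a block (adjusted p = 0.0364; 0.0119 to 0.405 over 27 alternatives). Psmd2, a scaffold of the 19S base, was at 208, 204, 189 and 199 CPM and then at 245, 206, 234 and 210 CPM (0.16, adjusted p = 0.161). Psmc1, one of its ATPases, was at 103, 95.5, 107 and 100 CPM and then at 137, 107, 131 and 104 CPM (0.24, adjusted p = 0.126). Both were higher in all 4 same-tag pairs with overlapping fractions.

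The highest alpha subunits per length were Psma7 (195 ± 6 and 215 ± 20 TPM) and Psma6 (160 ± 5 and 169 ± 10 TPM). Psma7 stood at 110, 105, 102 and 100 CPM in iron negative and 125, 96.1, 110 and 106 CPM in iron positive libraries, and Psma6 at 112, 96.3, 99.5 and 102 CPM and then at 113, 96.3, 109 and 100 CPM. Neither separated the fractions (0.07 and 0.03, adjusted p = 0.602 and 0.809). Among the non-catalytic beta subunits Psmb3 (204 ± 8 and 208 ± 5 TPM) and Psmb4 (192 ± 11 and 203 ± 7 TPM) were highest. Psmb3 was at 91.7, 84.3, 79.6 and 87.9 CPM in iron negative and 93.6, 81.1, 80.6 and 83.9 CPM in iron positive libraries. Psmb4 was at 145, 132, 126 and 138 CPM and then at 149, 133, 130 and 138 CPM. Fractions of both overlapped (adjusted p = 0.882 and 0.832).

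The constitutive subunits were highest in iron positive 3L. Their median deviation from the iron negative mean, in log2 units, was 0.10, -0.06, -0.04 and -0.01 in iron negative and 0.26, -0.04, 0.10 and 0.02 in iron positive libraries. For the 8 genes called lower the iron positive medians were -0.33, -0.31, -0.43 and -0.23. In the same libraries the endothelial markers summed to 235, 1772, 1089 and 303 CPM, and the neutrophil markers to 120, 73.0, 148 and 90.5 CPM. A link of either list to the constitutive subunits was not tested. Within the 20S core, Psmb6 had the highest and Psma2 the lowest TPM in all 8 libraries, and the coefficient of variation over the 14 genes was 33.0% to 36.5%.

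**Figure D5:**
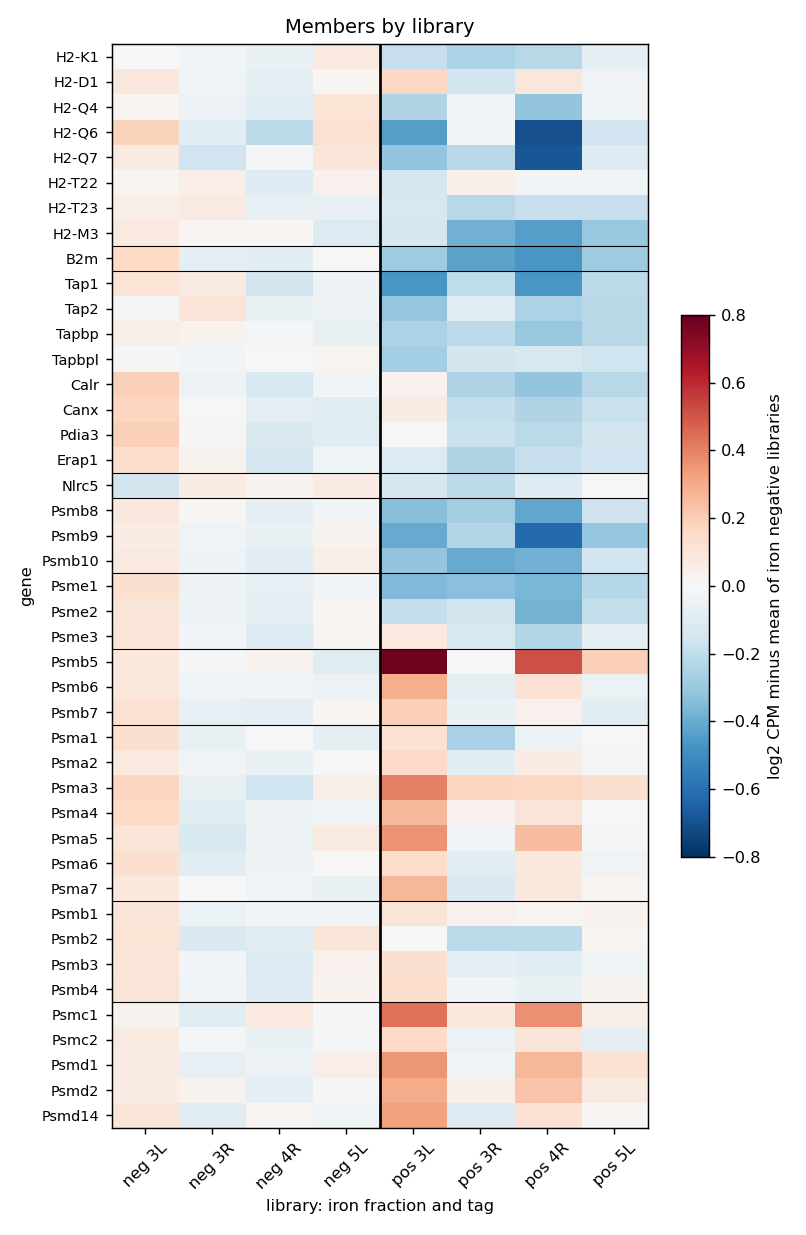
Log2 CPM of each of the 43 members (rows) in each library (columns), as the difference from the mean of the 4 iron negative libraries. The 8 genes called lower are below 0 in all 4 iron positive columns, and H2-D1 is above 0 in iron positive 3L and 4R. The median of the constitutive subunits is 0.26 in iron positive 3L and 0.10 in iron negative 3L.

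Genes around the pathway, in 7 lists by function chosen with earlier results of these data known, were read in the same fit. Of 12 regulators of class I genes and interferon-gamma signalling 6 fell and none rose, against 5.21% and 8.49% of all genes. Ifngr1, the ligand-binding receptor chain, went from 294 ± 14 to 235 ± 12 CPM (-0.32, adjusted p = 0.0185), and Nfkb1, the p50 precursor, from 183 ± 3 to 147 ± 15 CPM (-0.32, adjusted p = 0.0287). In neither gene did the fractions overlap. Ifngr2, Rfx5 and Rela were also called lower. Blocking on the tag, 7 were lower, against 9.39% of all genes. The gene added was Rfxap, a subunit of the RFX complex (24.9 ± 2.2 to 20.2 ± 2.2 CPM, adjusted p = 0.0817, blocked 0.0225). Under the macrophage scaling none of the 12 was lower and 2 were higher, against 0.337% and 28% of all genes. The median of the list went from -0.24 to 0.05.

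Of 7 cytosolic peptidases only Lap3, a leucine aminopeptidase, fell (122 ± 4 to 93.7 ± 7.9 CPM, -0.38 ± 0.07, adjusted p = 0.0177). Blmh (-0.13, adjusted p = 0.128) and Tpp2 (-0.14, adjusted p = 0.169) did not pass. Of 13 other class I and class I-like genes 7 were tested and 1 rose: Cd1d1, which presents lipids to NKT cells, was at 7.87, 5.61, 7.07 and 6.22 CPM in iron negative and 14, 8.47, 12.6 and 10.3 CPM in iron positive libraries (0.76 ± 0.18, adjusted p = 0.0294). Mr1 (0.36, adjusted p = 0.136) and H2-T10 (-0.25, adjusted p = 0.265) did not pass.

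None of 14 other 19S subunits was called and all 14 had a positive fold change (median 0.09), with Psmd12 at 0.27 (adjusted p = 0.105), Psmc4 at 0.14 (adjusted p = 0.119) and Psmd7 at 0.18 (adjusted p = 0.123). Blocking on the tag, Psmd12 was called higher (adjusted p = 0.0285). None of 12 assembly factors and other regulators passed either (median -0.02), among them Psmd5 (0.40, adjusted p = 0.0869), Psmd9 (0.17, adjusted p = 0.130) and Psmf1 (-0.13, adjusted p = 0.277). In the NRF1 pathway, which supplies new proteasomes when their activity drops, none of 5 genes passed. Nfe2l1, the gene of NRF1, averaged 128 ± 10 and 139 ± 13 CPM (adjusted p = 0.389), and Vcp 344 ± 11 and 368 ± 43 CPM (adjusted p = 0.497). Nfe2l2, which encodes NRF2, averaged 327 ± 94 and 239 ± 59 CPM (-0.45 ± 0.22, adjusted p = 0.211) and was called lower with the tag as a block (adjusted p = 0.00944). Of 10 other folding genes of the endoplasmic reticulum none passed, with Hspa5 at -0.30 (adjusted p = 0.160; lower with the tag as a block, 0.0413), Ganab at -0.11 (adjusted p = 0.197) and Prkcsh at -0.09 (adjusted p = 0.240).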

How the data were processed

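Transcript abundances were made by the authors with kallisto 0.46.2 on mm10, per the submitters' processing notes. The deposited tables give, per the file headers, estimated counts (expected counts, not normalized), TPM, and other values (transcript length and effective length), with 1 table per library. Which transcript release they used is not stated in the sources at hand. Of 119414 transcripts 116728 matched GENCODE M21 (GRCm38), and unmatched ones held 0.888% to 0.961% of counts. Estimated counts were summed over 35975 genes, without strand, and rounded.

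Genes kept by filterByExpr (13343) were scaled by TMM and tested with edgeR 4.0.16 (R 4.3.3; glmQLFit, glmQLFTest) on the fraction alone. SE is the coefficient over the square root of F. Alternatives used DESeq2 1.42.0, limma 3.58.1, other scalings, filters and units, and left out libraries. The steps were tested on simulated counts.

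Same-tag libraries deviated together (r = 0.55 for 3L, 0.56 for 3R, 0.28 for 4R and 0.34 for 5L, all above the limit of 0.1; pairing from the tags in the labels), so blocked values stand where they change a call. Some unlike tags passed that limit too, as iron positive 5L with iron negative 3L (0.25) and iron positive 4R with iron negative 3R (0.25). The limit alone therefore does not set same-tag pairs apart. No libraries agreed within counting noise (chi-square per gene 9.38 to 112).

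Words of 31 bases shared between genes were counted in GENCODE M21 transcripts of the deposited tables. Members and lists were chosen with earlier results of these data known. Values per library are given for the called members and the 2 highest per group by TPM, and up to 3 genes per surrounding list by adjusted p. Other members, and Ifngr2, Rfx5, Rela and Rfxap, were named after their values were seen. A gene of the regulator list is not reported here.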

Additional observations from a re-analysis of the deposited data

Results flagged for a closer look

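In 4 of 86 groups of 4 libraries, 1 library lay apart from the other 3 (Dixon's test at the 95% level), and chance alone gives about 1 in 20. All 4 are constitutive proteasome genes with tag 3L as the highest library. Psmb6 stood at 118 CPM in iron negative 3L against 107 to 109 in the others, and Psma3 at 113 CPM in iron positive 3L against 93.6 to 96.5. Psmb1 stood at 136 CPM in iron negative 3L (others 123 to 125) and at 137 CPM in iron positive 3L (others 129 to 130).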

How the results depend on the processing

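The 8 members called lower remained negative under each alternative run except the macrophage scaling, where Tapbp turned to 0.050 (log2, adjusted p = 0.690). Psma1 and Psmb3 turned to 0.24 and 0.28 and were called higher there. Of the uncalled members 24 had another sign under at least 1 alternative. Members called lower numbered 10 and higher 2 with the tag as a replicate block (1705 higher and 1253 lower over all genes), 5 and 1 with library totals (362 lower over all genes), 0 and 19 with the macrophage scaling (3737 and 45 over all genes), 3 with limma voom (189 and 273 over all genes), and 2 on log2(TPM + 1) (413 and 205) or log2(TPM + 0.1) (706 and 270). They numbered 12 with DESeq2 (1955 and 1050). Effective length offsets gave 407 lower genes, and the filter at 5 CPM 564 higher and 379 lower. With 1 library left out, in edgeR or, an alternative chosen after seeing the data, in DESeq2, 0 to 12 members were lower and 0 to 2 higher, and over all genes 0 to 1221 lower and 0 to 2134 higher. Apart from fewer samples, the cause of these changes was not tested. Ratios from estimated counts per effective length equal those of TPM by construction. On protein-coding transcripts alone the Psmb8 to Psmb5 ratio was 1.56 and 0.988 (2.36 and 1.51 with all transcripts). No pseudocount enters the edgeR results.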
